A study of Mus musculus with 8 samples.

Results

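Cordycepin, the adenosine analogue 3′-deoxyadenosine, raised a small set of genes in serum-stimulated mouse fibroblasts far above the level they had without it. The genes described here are 9 of those with the strongest rises among named transcripts. They are Kbtbd11, Gm9975, Hmha1 (now Arhgap45), Ly6g6c and Shd, which were measured with and without the drug, and Grb7, Gpr84, Hapln3 and Ampd1, each with a probe that was above background on every cordycepin array and on no array of serum alone. Hapln3 had a further probe that was measured in all groups. All array probes that carry these gene names were taken, which gave 12 of 55681 probes for 9 of 35715 gene names. Of the 12, 11 could be tested, among 30857 tested probes on the array. The genes were chosen by their log2 difference between cordycepin plus serum and serum alone, so that difference is given as a description and no p is read from it.

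NIH3T3 is an immortalised line of mouse embryonic fibroblasts. Cells grown in 10% newborn bovine serum were held in 0.5% serum for 24 h and then given 20 µM cordycepin in DMSO or 0.1% DMSO alone. Serum was added 60 min later and left for 30 min, so that exposure to cordycepin lasted 90 min. Arrays of 3 samples with cordycepin and serum, 3 with serum alone and 2 without serum were made, all from starved cells of 1 line. No array held cells with cordycepin and without serum. Nothing in the labels says whether arrays of a group came from separate cultures, so the spread between them may be technical.

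Most mammalian mRNAs are cut and polyadenylated downstream of a signal whose usual letters in DNA are AATAAA. RNA polymerase II goes on transcribing past that cut before it is released, and transcription that goes on into the next gene on the same strand is known as readthrough. Cordycepin is phosphorylated in cells to a triphosphate, lacks the 3′ hydroxyl group to which an RNA chain is extended, and has long been used as an inhibitor of polyadenylation.

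The 9 genes have little in common by function. Grb7 and Shd encode adaptors with an SH2 domain, Hmha1 a GTPase-activating protein, and Ly6g6c a small protein held at the cell surface by a lipid anchor. Gpr84 encodes a G protein-coupled receptor that responds to medium-chain fatty acids and is best known from myeloid cells. Hapln3 encodes a link protein of hyaluronan and proteoglycans, Ampd1 the AMP deaminase of skeletal muscle, and Kbtbd11 a protein with BTB and kelch domains. No role is given here for the predicted gene Gm9975.

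For each gene, the probe with the largest difference is called the lead probe, a choice that was itself made from the readout. The lead probes of Hmha1, Grb7 and Gpr84 are among those that hold the letters AATAAA. A stretch of 30 bases from each of these 3 probes is shown, read 5′ to 3′ in the direction of the transcript, with AATAAA in capitals, because it places the probe beside a possible end of the gene's own mRNA.

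Hmha1: caattttcttgaAATAAActtcttaaccaa
Grb7: tctgttttataccagtaacAATAAAgatta
Gpr84: tggttaattattAATAAAgacattgcatcc

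The motif was searched on the transcript strand only, over the whole 60 bases of each probe. It was found in 4 of 9 lead probes. Of all 17894 tested probes for RefSeq mRNAs, 14.2% held it, and of the 633 that were called higher with cordycepin, 17.1% did. The match describes letters and does not show that the site is used.

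The lead probes of Hapln3 and Ampd1 do not hold these letters. They are given by their last 30 bases, because Hapln3 had a further probe that behaved differently and Ampd1 lay farthest from its upstream neighbour.

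Hapln3: tcttttacttaaataagacttagaatagat
Ampd1: tgcaaagaatcctttcttagatttcctcca

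Signals are the log2 of the processed signal with the array's own 75th percentile subtracted, and 0 is the level that 75% of spots do not exceed. Differences are on this log2 scale. Of the 11 tested probes, 10 were called higher with cordycepin, that is with a log2 difference of at least 1 and an adjusted p under 0.05, where 7.64% of all tested probes and 3.54% of those for RefSeq mRNAs were. Since this contrast chose the genes, nothing follows from that count. The 5 lead probes with a measured level in serum ranked between 28 and 154 among the 30857 differences. On each lead probe, the lowest cordycepin array was higher than the highest of the other 5 arrays. The choice of genes favours such a gap, and the share of all tested probes that show it was not computed. On the 5 measured ones the gap was 2.71 for Hmha1 to 4.81 for Kbtbd11 on the log2 scale. In cultures measured as a whole, more expressing cells and more RNA per cell cannot be told apart.

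Grb7 encodes an adaptor that binds activated receptor tyrosine kinases, among them the product of its neighbour Erbb2. Its probe lies at chr11:98316616-98316675 (mouse build mm9, plus strand). The log2 signal was -8.06 and -7.67 without serum, -6.90, -6.31 and -7.76 with serum, and -0.18, -0.51 and -1.26 with cordycepin and serum. None of the first 5 arrays was well above background and all 3 cordycepin arrays were. Against the lowest level that counted as above background, Grb7 was at least 29.0-fold higher with cordycepin.

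Shd, an adaptor of the SHB family, was measured on all 8 arrays, at chr17:56115810-56115870 on the plus strand. Its log2 signal was -4.56 and -5.08 without serum, -3.86, -4.27 and -4.36 with serum, and -0.28, -0.24 and -0.41 with cordycepin. The cordycepin arrays lay closer together than on any other lead probe, with an SD of 0.09 (n = 3). The difference was 3.86 ± 0.18 (SE of the fit), or 14.5-fold.

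Hmha1 encodes the source of the minor histocompatibility antigen HA-1 and is best known from blood cells. Its probe lies at chr10:79494154-79494213 on the plus strand. The log2 signal was -4.05 and -4.34 without serum, -3.06, -3.68 and -3.90 with serum, and 1.09, 0.57 and -0.34 with cordycepin. The cordycepin arrays spread more widely here than on the other lead probes, with an SD of 0.72 (n = 3), and still did not overlap the rest. The difference was 3.98 ± 0.36, or 15.8-fold.

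Ly6g6c belongs to the Ly6 and uPAR family and lies among relatives in the class III region of the major histocompatibility complex. Its probe is at chr17:35206934-35206993 on the plus strand. The log2 signal was -2.71 and -2.99 without serum, -2.22, -2.42 and -2.56 with serum, and 1.72, 1.53 and 1.14 with cordycepin. The 5 arrays without cordycepin stayed within a narrow range and the 3 with it were all above the 75th percentile of their array. The difference was 3.86 ± 0.17, or 14.6-fold.

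Gpr84 was read by 1 probe at chr15:103138670-103138729 on the minus strand. Its log2 signal was -6.48 and -7.49 without serum, -6.85, -6.28 and -6.82 with serum, and -0.29, -0.18 and -1.21 with cordycepin. As for Grb7, the probe was above background on the cordycepin arrays alone. The rise was at least 30.9-fold, the largest bound among the 4 lead probes without a measured level in serum.

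Gpr84 and Hmha1 are both best known from blood cells, so markers of that lineage were read on the same arrays. Of 6 haematopoietic markers on the array, 3 were above background on all 8 arrays, and Spi1 on none. Cd68, a lysosomal protein of macrophages that other cells also make, was higher by 3.04 with cordycepin (limma, adjusted p = 5.17e-05). Itgam, an integrin subunit of myeloid cells, was higher by 0.63 (limma, adjusted p = 0.0219), under the minimum fold of a call. The summed linear signal of the 6 markers, in units of each array's 75th percentile, was 15.0 to 17.2 with serum and 26.9 to 33.8 with cordycepin. Without Cd68 it was 14.3 to 16.1 and 20.4 to 25.5. In cells without serum the sum was 13.7 to 18.4 for the 6 markers and 12.9 to 17.2 when Cd68 was left out. The part of these markers in the rise of Gpr84 and Hmha1 was not tested. All 13 fibroblast markers were above background on all 8 arrays and 0 were called. Their summed signal was 2110 to 2390 without serum, 2250 to 2570 with serum and 2540 to 2970 with cordycepin.

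Hapln3 was read by a pair of probes that did not move together. The lead probe, designed on a full-length cDNA, lies at chr7:86260030-86260089 on the minus strand. Its log2 signal was -7.98 and -7.62 without serum, -7.89, -6.33 and -6.66 with serum, and -0.46, -1.07 and -1.47 with cordycepin. It passed from background on 5 arrays to a measured level on 3, a rise of at least 22.7-fold. The other probe, designed on the RefSeq mRNA, lies 2012 bases upstream at chr7:86262042-86262101. It read -2.87 and -3.01 without serum, -2.68, -3.16 and -2.86 with serum, and -2.45, -2.71 and -2.69 with cordycepin. Here the groups overlapped and the difference was 0.28 ± 0.15. The gain was thus seen on the downstream probe of the gene and not on the upstream one, and levels are not compared between the probes.

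Ampd1, which converts AMP to IMP in muscle, was read at chr3:102902649-102902708 on the plus strand. Its log2 signal was -8.08 and -5.21 without serum, -6.74, -7.14 and -7.78 with serum, and -0.93, -1.45 and -1.88 with cordycepin. Replicate 2 without serum was well above background, the only array without cordycepin on which Ampd1 was. The rise over serum was at least 17.0-fold. Of 5 muscle markers on the array, 1 was above background on all 8 arrays, and 0 were called with cordycepin.

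Kbtbd11 showed the largest difference among the genes measured in both groups. On its lead probe, at chr8:15027026-15027085 on the plus strand, the log2 signal was -4.21 and -4.33 without serum, -3.67, -3.78 and -3.73 with serum, and 1.75, 1.25 and 1.14 with cordycepin. The difference was 5.11 ± 0.16, or 34.5-fold. A second probe 6166 bases downstream read -4.40, -4.66 and -3.88 with serum and -0.03, -0.07 and -0.26 with cordycepin. That is a difference of 4.19 ± 0.21, or 18.3-fold, so both probes of the gene that could be measured rose. The remaining probe, 258 bases downstream of the lead probe, was not above background on any array and was not tested.

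Gm9975 was read by 1 probe designed on a cDNA, at chr11:86392847-86392906 on the minus strand. The log2 signal was -5.63 and -4.46 without serum, -4.27, -4.57 and -5.22 with serum, and -0.37, -0.82 and -0.72 with cordycepin. The difference was 4.05 ± 0.34, or 16.6-fold. As on all lead probes, no array without cordycepin reached the lowest cordycepin array, a gap that the choice of genes favours.

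**Figure D1:**
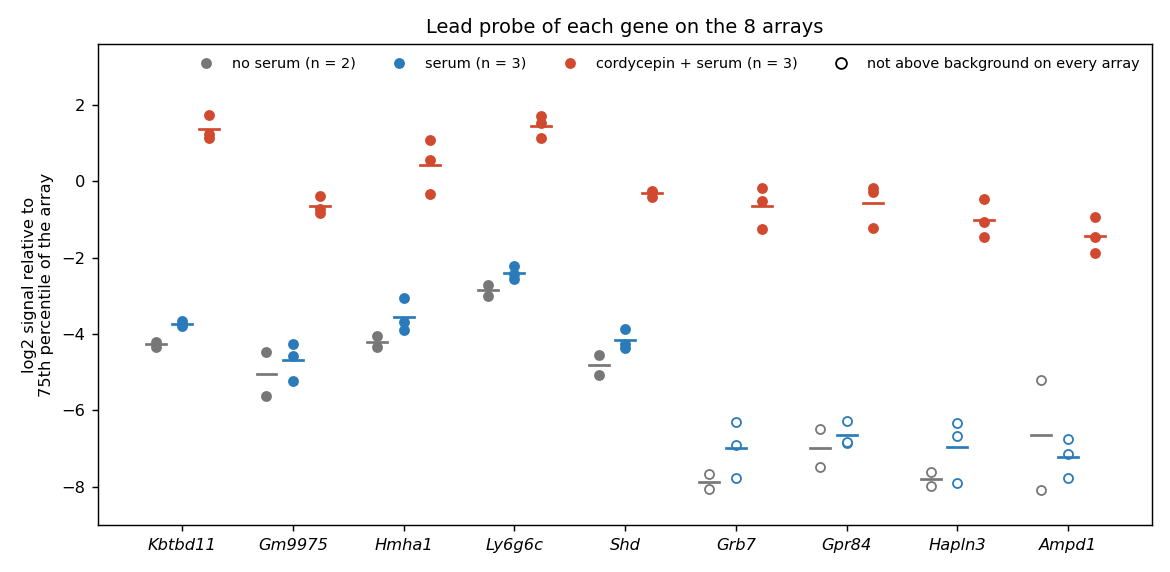
Log2 signal of each lead probe relative to the 75th percentile of its array, 1 point per array, with a bar at the group mean. Open points mark groups in which the probe was not well above background on every array. On all 9 probes the 3 cordycepin arrays lie above the other 5, a gap that the choice of genes favours.

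The border of the set was close. Among lead probes without a measured level in serum, where a fitted difference is neither a measured size nor a bound, Ampd1 had 5.80 and the next gene, Dhdh, 5.76. Ifnab, with 7.24, stood above all of these and is not counted among the 9. Among genes measured in both groups, Shd had 3.86 and the next, Creb1, 3.83. The non-coding A730013G03Rik, with 4.18, was left out as well.

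What lay upstream of each gene was read next, because the choice of genes did not use it. For each lead probe, the nearest RefSeq mRNA probe of another gene that lies upstream on the same strand was taken by position alone. These were Arhgef10 for Kbtbd11, Vmp1 for Gm9975, Abca7 for Hmha1, Ddah2 for Ly6g6c, Ccdc94 (now Yju2) for Shd, Erbb2 for Grb7, Zfp385a for Gpr84, Mfge8 for Hapln3 and Nras for Ampd1. All 9 were well above background on all 8 arrays, and all 9 lay within 50 kb, at 5.41 to 31.3 kb with a median of 15.9 kb. Over 17042 other tested RefSeq mRNA probes, 69.7% had an upstream neighbour above background on all 8 arrays, 35.0% had one within 50 kb, and 25.9% had both. The median distance there was 89.4 kb.

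None of the upstream neighbours was called in either direction. Their differences with cordycepin ran from -0.72 to 0.20 with a median of 0.01, where the median over all tested probes was 0.10 and over RefSeq mRNA probes 0.06. The background shares are 7.64% of all tested probes called higher and 2.87% called lower, or 3.54% and 2.45% of those for RefSeq mRNAs. Each upstream neighbour therefore kept a level within 1 log2 unit of that in serum. The 5 lead probes with a measured level in serum gained at least 3.86 as processed here. The remaining lead probes were above background on every cordycepin array and on no array of serum alone.

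Vmp1, which acts in autophagy at the endoplasmic reticulum, lay nearest, 5.41 kb upstream of Gm9975. It read 4.65, 4.44 and 4.56 with serum and 4.52, 4.50 and 4.31 with cordycepin. The groups overlapped and the difference was -0.11 ± 0.11.

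Zfp385a, a zinc finger gene 6.33 kb upstream of Gpr84, read -1.02, -1.06 and -1.09 with serum and -1.12, -0.66 and -0.86 with cordycepin. The difference was 0.18 ± 0.13. Ddah2, 8.06 kb upstream of Ly6g6c, read 6.32, 6.34 and 6.43 with serum and 6.49, 6.65 and 6.45 with cordycepin, a difference of 0.16 ± 0.12. The groups overlapped for Zfp385a and did not for Ddah2, by a margin far under the rise of Ly6g6c.

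Ccdc94, a splicing factor gene 9.82 kb upstream of Shd, was the only neighbour with an adjusted p under 0.05. It read -1.67, -1.68 and -1.71 with serum and -2.44, -2.37 and -2.39 with cordycepin. The difference of -0.72 ± 0.09 (limma, adjusted p = 0.00108) ran against the rise of Shd and did not reach the minimum fold of a call.

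Erbb2, the receptor tyrosine kinase 18.5 kb upstream of Grb7, read 1.24, 0.68 and 0.86 with serum and 0.60, 1.10 and 0.53 with cordycepin, with overlap and a difference of -0.18 ± 0.21. Nras, a Ras GTPase 31.3 kb upstream of Ampd1, read 2.55, 2.18 and 2.38 with serum and 2.65, 2.33 and 2.15 with cordycepin. It also overlapped, and its difference was 0.01 ± 0.16. Arhgef10, Abca7 and Mfge8 differed by -0.31 ± 0.13, 0.17 ± 0.12 and 0.20 ± 0.15.

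Downstream, on the same strand, the neighbours of the 9 genes lay farther off than upstream. The nearest RefSeq mRNA probes lay 8.63 to 281 kb away with a median of 65.3 kb, and 3 of 9 were within 50 kb. Over 17042 other tested RefSeq mRNA probes, the median was 86.6 kb and 34.9% had a downstream neighbour within 50 kb. For 68.6% the downstream neighbour was above background on all 8 arrays. Of the 9 neighbours here, 4 were above background on all 8 arrays and 3 on none. The 4 that were tested differed by -0.39 to 0.21 and 0 were called. Ly6g6e, the nearest of them, 8.63 kb past Ly6g6c, was not above background on any array.

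**Figure D2:**
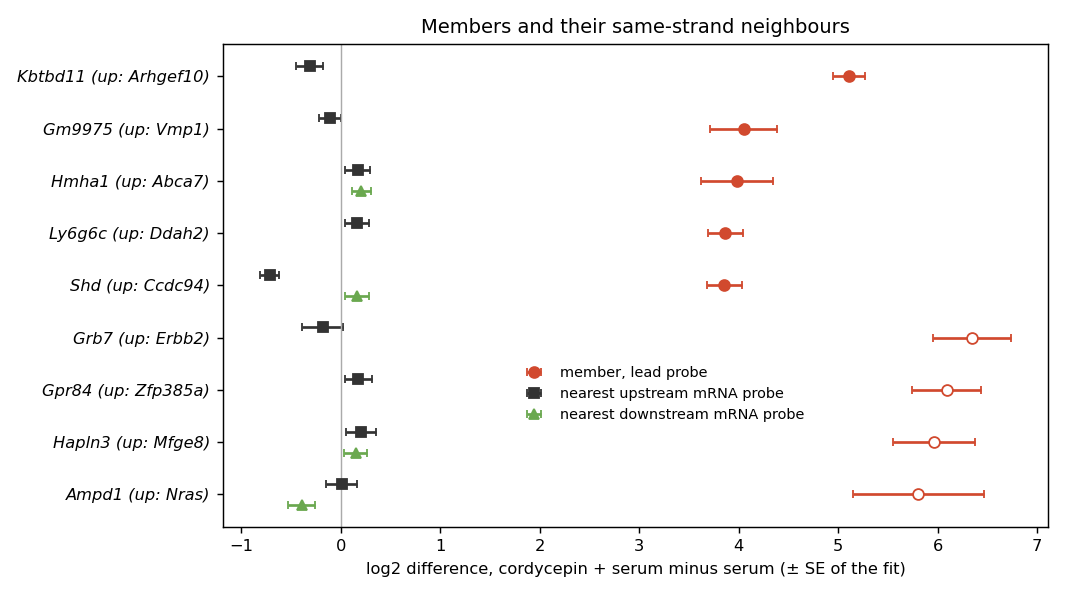
Log2 difference between cordycepin plus serum and serum alone, with the SE of the fit, for each lead probe (circles, open where serum arrays were not above background), its nearest upstream mRNA probe on the same strand (squares) and the nearest downstream one where tested (triangles). The upstream neighbours lie between -0.72 and 0.20 and the 5 measured lead probes between 3.86 and 5.11.

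The same reading was made over the rest of the array, with the 9 genes left out. Among RefSeq mRNA probes that were not above background on any of the 5 arrays without cordycepin, 129 of 7328 (1.76%) were above background on all 3 cordycepin arrays. Where the nearest upstream mRNA probe on the same strand lay within 50 kb and was above background on all 8 arrays, the share was 87 of 921 (9.45%). Where that neighbour lay as near and was above background on none, it was 7 of 1341 (0.522%), and where it lay farther away, 25 of 4716 (0.530%).

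The nearest downstream probe on the same strand gave 38 of 940 (4.04%) with an expressed neighbour within 50 kb and 12 of 1331 (0.902%) with an undetected one. The nearest upstream probe on the opposite strand gave 21 of 538 (3.90%) and 7 of 643 (1.09%). These shares are given as a description with no test. Probes can share a neighbour, and the classes were not matched for how densely genes lie around them. Grb7 and Gpr84, whose RefSeq mRNA probes were undetected on the 5 arrays without cordycepin, have a neighbour of the class with the highest share. The arrays read short stretches of RNA and do not show where an RNA began, so transcripts from a gene's own start and from an upstream gene cannot be told apart here.

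**Figure D3:**
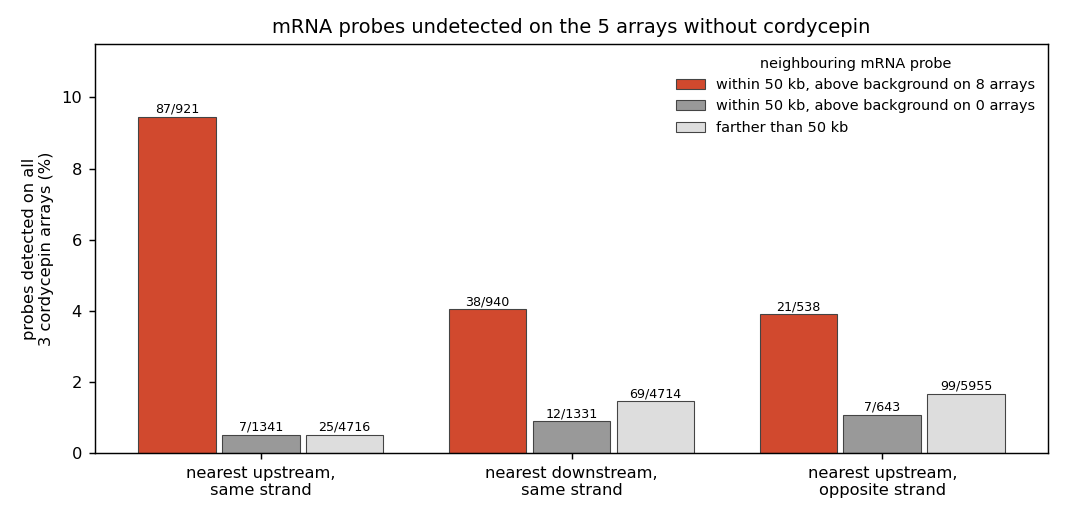
Share of RefSeq mRNA probes, undetected on the 5 arrays without cordycepin, that were above background on all 3 cordycepin arrays, by the position, strand and detection of the nearest neighbouring mRNA probe, with counts above the bars and the 9 genes left out. The share is 9.45% with an expressed upstream neighbour on the same strand within 50 kb and 0.522% with an undetected one.

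Within 50 kb of the 9 genes there were 45 probes of other transcripts, of which 37 could be tested. With cordycepin 1 was called higher and 1 lower, against 7.64% and 2.87% of all tested probes. On the same strand, 20 were tested, 0 were called higher, and their differences had a median of 0.07. Between Ddah2 and Ly6g6c, the non-coding G6bos differed by 0.14 ± 0.22. Gm38938, on the opposite strand 1.25 kb from Gm9975, differed by 0.18 ± 0.29, and Ly6g6d, on the opposite strand 1.42 kb from Ly6g6c, was not above background on any array.

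The probe called higher was Ly6g5b, a relative of Ly6g6c 44.1 kb downstream on the opposite strand. It read -3.10 and -3.05 without serum, -2.42, -2.66 and -2.71 with serum, and 0.20, 0.64 and 0.40 with cordycepin, with no overlap and a difference of 3.01 ± 0.14 (limma, adjusted p = 1.15e-05). Csnk2b, a subunit of casein kinase 2 on the strand of Ly6g5b and upstream of it, differed by 0.22 ± 0.11.

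The probe called lower was Itga5, an integrin gene 36.4 kb upstream of Gpr84 on the same strand, at -1.65 ± 0.17 (limma, adjusted p = 0.000316). Its mean log2 signal was 0.70 without serum, 2.00 with serum and 0.35 with cordycepin and serum. On the opposite strand, Ikzf3, 9.56 kb past Grb7, differed by 0.87 ± 0.20. It passed the minimum fold only when serum replicate 3 was left out, where the difference was 1.05 and 2 probes were called higher. Acan, read 0.289 kb from the Hapln3 lead probe on the opposite strand, differed by 0.52 ± 0.15.

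**Figure D4:**
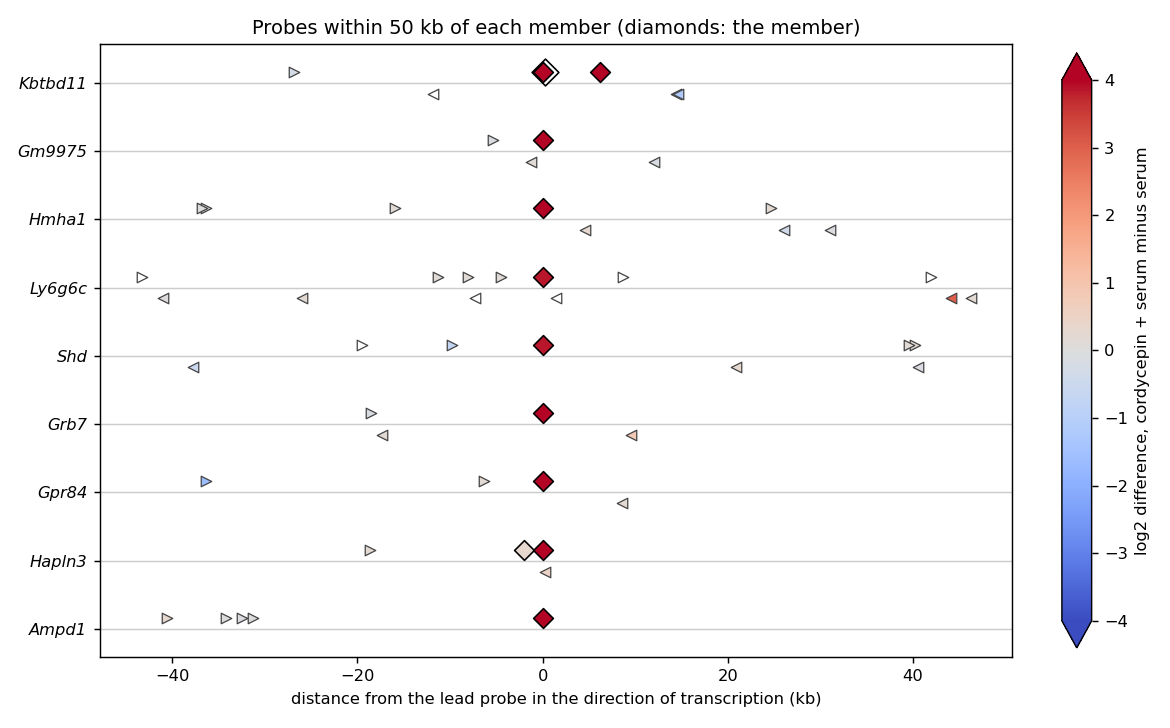
Probes within 50 kb of each gene, placed by distance in kb from the lead probe in the direction of transcription, with right-pointing triangles above the line for the same strand, left-pointing triangles below it for the opposite strand and diamonds for the gene itself. Colour gives the log2 difference with cordycepin, and white marks probes that were not tested. Of 37 tested neighbours, Ly6g5b at 44.1 kb from Ly6g6c is the one called higher.

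Whether the genes respond to serum itself was asked by comparing serum alone with no serum. This contrast did not choose the genes, but it shares its 3 serum arrays with the one that did. Of 11 tested probes, 0 were called, where 0.849% of all tested probes were called higher and 0.878% lower, and 0.782% and 0.0615% of those for RefSeq mRNAs. At an unadjusted p under 0.05 there were 3, those of Shd and the 2 measured probes of Kbtbd11, against 10.3% of all probes. On the 5 lead probes that were measured in both groups, the differences ran from 0.36 for Gm9975 to 0.66 for Shd, where the median over all tested probes was -0.02.

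Shd differed by 0.66 ± 0.20 with serum (limma, adjusted p = 0.210) and Kbtbd11 by 0.54 ± 0.18 (adjusted p = 0.270). In both, and likewise in Hmha1 and Ly6g6c, the 3 serum arrays lay above both arrays without serum, while the groups overlapped for Gm9975. The share of all tested probes that separate in this way was not computed. The lead probes of Grb7, Gpr84 and Hapln3 were not above background in either of these groups and that of Ampd1 on 1 of the 5 arrays, so they give no direction with serum. The other probe of Hapln3, measured on all 5, differed by 0.04 ± 0.17.

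Cells with cordycepin and serum were also set beside cells without serum, a contrast that shares the cordycepin arrays with the one that chose the genes and is likewise a description. The measured lead probes were higher by 4.31 for Ly6g6c to 5.65 for Kbtbd11. Grb7 was at least 34.6-fold higher, Gpr84 at least 36.8-fold and the lead probe of Hapln3 at least 27.1-fold.

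**Figure D5:**
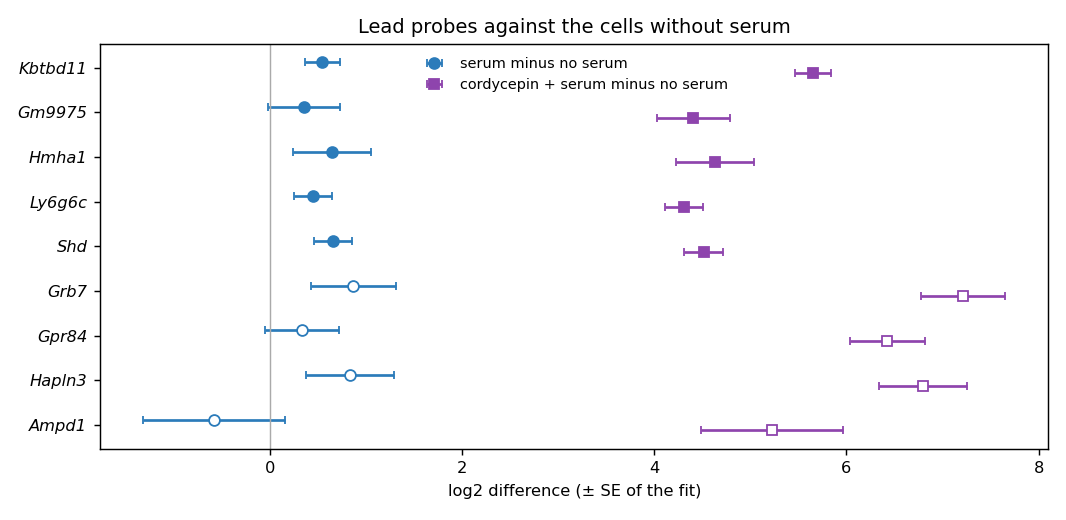
Log2 difference of each lead probe from cells without serum, with the SE of the fit, for serum alone (circles) and for cordycepin plus serum (squares). Open symbols mark differences with a group in which the probe was not above background on every array. On the 5 measured lead probes serum alone gives 0.36 to 0.66 and cordycepin plus serum 4.31 to 5.65.

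The relatives of the 9 genes were read from lists by family. Of 56 genes on the array, 34 were tested, 2 were called higher and 1 lower, and their median difference was 0.06. Over all tested probes 7.64% were called higher and 2.87% lower, and over those for RefSeq mRNAs 3.54% and 2.45%, so these counts lie near the background. Adssl1, which acts beside Ampd1 in the purine nucleotide cycle, read -0.52, -0.96 and -1.23 with serum and 1.13, 0.40 and -0.09 with cordycepin, with no overlap and a difference of 1.38. It was no longer called when signals were centred on spike-in probes or when serum replicate 3 was left out, which left 1 gene called higher. When serum replicate 2 was left out, 3 were, Cd59b joining them.

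Of the Ly6 and uPAR genes, 13 of 22 were tested. Ly6g5b rose, as given above, and Plaur, the urokinase receptor, fell by 1.72, from 3.82, 4.20 and 3.41 with serum to 2.07, 2.07 and 2.12 with cordycepin. The closest relatives of Grb7 did not follow it. Grb10 differed by 0.05 and Grb14 by -0.06, and both were above background on all 8 arrays. The same was seen for the AMP deaminases Ampd2, at -0.08, and Ampd3, at 0.06, and for Shf, at -0.17. Shb was lower by 0.50 (limma, adjusted p = 0.0272), under the minimum fold of a call, and She was not tested.

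The F-BAR genes related to Hmha1, Arhgap29 and Gmip, differed by -0.45 (limma, adjusted p = 0.0462) and 0.22 (adjusted p = 0.252), both under the minimum fold. Among 5 tested BTB-kelch genes, 0 were called, with a median of -0.43. Among link proteins and lecticans, 4 of 7 were tested and differed by 0.06 to 0.52, with Hapln1 and Hapln2 above background on no array. Of 6 fatty acid receptors 1 was tested, Ffar3, which differed by -0.02.

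Over the 8 arrays, the RefSeq genes whose profile was most like the mean of the lead probes were Ifnab (r = 0.9995), Ifna14 (r = 0.998), Tfap2e (r = 0.998), Tsc22d4 (r = 0.997) and Ptprcap (r = 0.997). Of 13412 genes, 401 had an r over 0.95. With 3 arrays high and 5 low, r is high for any gene whose difference is large beside its spread, so it describes the shape and is given without a p.

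The lead probes kept their direction under all alternatives run, and 1 setting moved their size more than the others did. Leaving out single arrays gave smaller shifts. Hmha1, at 3.98, had 3.66 without cordycepin replicate 1 and 4.37 without cordycepin replicate 3. With normexp background correction, which adds an offset to dim signals, the differences of the 5 measured lead probes ranged from 2.43 for Gm9975 to 3.73 for Kbtbd11. Those of Grb7, Gpr84, Hapln3 and Ampd1 were 2.74, 2.58, 2.38 and 2.13. The bounds given above for these 4 genes were computed without this correction and are not lower limits under it. All 10 probes called higher stayed so.

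Across the arrays, the signal at the 75th percentile was 350 to 802, and between 51.1 and 57.1% of probes stood above background. No spot was saturated. Arrays of 1 group correlated at r = 0.992 to 0.995 and arrays of different groups at 0.965 to 0.992. The 8 arrays shared 1 slide and 1 scan.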

How the data were processed

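The authors labelled total RNA with Cy3 and hybridised it to Agilent 1-colour arrays. The deposited files hold scanner intensity per spot, extracted by the authors with Agilent Feature Extraction 10.7.3.1, with probe positions on mm9. The flags in the same files, which mark control, outlier and above-background spots, were deposited as 0 or 1 codes. Groups came from the labels. The genes and all lists were chosen with earlier results of these data known.

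From log2 of the processed signal, the 75th percentile over the 59305 non-control spots of each array was subtracted. Outlier spots were left out and spots of a probe averaged. Tested probes were those with signal above background on all arrays of 1 group or more. Differences were fitted with limma 3.58.1 in R 4.3.3 over all 30857 tested probes and 8 arrays, with no block, and p-values (two-sided) were adjusted by Benjamini-Hochberg. A call needs an adjusted p under 0.05 and a log2 difference of at least 1. The calculation was tested on simulated data. Where no array of a group was above background, a fold is a bound: the mean of the bright group against the mean of the dim arrays, where each array gives its lowest detected value or the probe's value, whichever is higher. The number of arrays limits precision.

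Named were the 9 genes with every probe, their nearest mRNA probes on either side on the same strand, probes within 50 kb where a sentence turns on them, called relatives with the closest ones, and the 5 genes most alike in profile. Tcap, outside that rule, was named after its value was seen. Symbols were updated through RefSeq (GRCm38.p6), and none of its coordinates were used. Exon and UTR positions were not analysed here, and 1 probe sequence and 1 marker are not reported here. Alternatives were background correction, scaling, filters, windows, blocks and leaving out each array.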

Additional observations from a re-analysis of the deposited data

How the results depend on the processing

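Of 183 values for single probes of the 9 genes under 17 alternatives, 183 kept their direction and their side of the threshold. The genes were chosen on this contrast, and filters or the loss of an array without serum cannot change the difference itself. The count is therefore a description only. Requiring a signal above background on all 8 arrays left 6 of 7 tested probes called higher, since Grb7, Gpr84, Hapln3 and Ampd1 then drop out on their lead probes. With no minimum fold, 1 upstream neighbour (Ccdc94) was called, 2 probes beside the genes were called higher and 2 lower, and 4 relatives were called higher and 5 lower. Within 20 kb, 0 of 17 tested probes beside the genes were called higher and 0 lower, and within 100 kb 2 were called higher, the added one being Tcap at 3.04. Centring on spike-in probes left 1 relative called higher, and quantile normalisation gave 3 called lower. The cause of these last shifts was not tested. The median difference with cordycepin over all tested probes was 0.10 in the main setting, 0.00 after quantile normalisation, 0.04 with spike-in centring and 0.13 with normexp.

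Leaving out each array in turn gave 10 member probes called higher throughout, 0 called with serum, 0 upstream neighbours called, 1 to 2 probes beside the genes called higher and 1 lower, and 1 to 3 relatives called higher and 1 lower. Same-numbered arrays of different groups deviated together only weakly or not at all over all tested probes (r from -0.17 to 0.23). With 2 or 3 arrays a group, this cannot settle whether the numbers pair the samples. With the replicate number as a block, the SE on the lead probe fell from 0.36 to 0.17 for Hmha1 and rose from 0.41 to 0.43 for Hapln3. With the replicate number as a block, 10 member probes were called higher, 0 were called with serum and 0 upstream neighbours were called, and no other count moved. The fold on the lead probes of Grb7, Gpr84, Hapln3 and Ampd1 is limited by the background of the serum arrays, and the bounds do not hold under normexp background correction.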
